A study of Mus musculus with 8 samples.

Results

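The genes of mouse telomere protection and telomere synthesis were followed in synchronized testes with and without *Spdya*. The set was chosen by gene name and holds 9 genes of the 54532 in the deposited table: the shelterin genes *Terf1*, *Terf2*, *Terf2ip*, *Pot1a*, *Pot1b*, *Acd* and *Tinf2*, the telomerase gene *Tert* and the helicase gene *Rtel1*. All 9 were among the 12141 protein-coding genes with a mean above 1 FPKM in both groups, which were the genes tested. FPKM counts the sequenced fragments of a gene, divided by gene length in kilobases and by a scaled library size.

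RNA was measured in whole testes, with 1 library per mouse, from 4 *Sync-Spdya fl/fl* mice (control) and 4 *Sync-Spdya cKO* mice (cKO). Both groups carried floxed *Spdya* alleles, had spermatogenesis synchronized by blocking and then restoring retinoic acid (RA), and received tamoxifen on RA7.5 and RA8.5 (days after RA was restored, per the labels). The cKO mice also carried *Ddx4-CreERT2*, a tamoxifen-induced Cre made in germ cells, so the deletion concerns germ cells and is limited to those in which Cre acted. Testes were taken at RA11.5, when the labels place the spermatocytes in mid-late pachynema.

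Telomeres end chromosomes in repeats of the sequence TTAGGG. In shelterin, TRF1 (from *Terf1*) and TRF2 (from *Terf2*) bind the duplex repeats, POT1 proteins bind the single strand, TIN2 (from *Tinf2*) and TPP1 (from *Acd*) hold these together, and RAP1 (from *Terf2ip*) rides on TRF2. Telomerase adds repeats with the reverse transcriptase TERT and an RNA template, and RTEL1 unwinds telomeric loops. In meiotic prophase, telomeres are also attached to the nuclear envelope, where TRF1 meets the TERB1-TERB2-MAJIN complex and Speedy A, the product of *Spdya*.

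The libraries held 13978342 to 19583091 fragments on genes, and single members were counted with 255 to 2055 fragments per library. *Spdya* itself, which is counted over the whole gene and so does not check the loss of its floxed exon 2, averaged 21.3 ± 1.76 FPKM (SD, n = 4) in control and 24.1 ± 5.45 FPKM in cKO libraries (limma adjusted p = 0.787). Of the spermatocyte markers, *Sycp1* and *Sycp3* were abundant. *Ccna1*, at 0.834 to 1.95 FPKM, and *Ovol1*, at 1.08 to 1.66 FPKM, are on the same list and were low. The spermatid markers *Acrv1*, *Tnp1*, *Tnp2*, *Prm1* and *Prm2* were at 0 to 0.580 FPKM, while *Spaca1*, also on the spermatid list, had 1.92 to 8.99 FPKM. Control replicate 1 stood apart, with 0.464% of its fragments on mitochondrial genes against 2.20% to 3.74% in the other 7 libraries, and the member values are also given without it. In whole testis, fewer cells of a type and less RNA per cell cannot be told apart.

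No member differed between the groups beyond the spread between replicates. The test was limma on log2(FPKM + 0.1), with p-values adjusted over all 12141 genes, and a gene was called at an adjusted p below 0.05 with a change above 2-fold. Of the 9 members, 0 were called, where 0.0165% of the genes tested were called (2 genes). At an unadjusted p below 0.05 there were also 0 members, against 10.9% of the genes tested (1322 genes). The control and cKO ranges overlapped in all 9 members, and they were separate in 6.24% of the genes tested. With only 9 members, counts of 0 do not set them apart from these shares. Log2 fold changes of cKO against control lay between -0.29 and 0.07, with 3 above 0 and 6 below 0 and a median of -0.04 beside 0.01 for all genes tested. The number of mice limits precision: the 95% intervals of the 9 fold changes ran from 0.597-fold to 1.30-fold, all within 2-fold, and 8 of them within 1.5-fold, the exception being *Tinf2*. The paper gives *Spdya fl/fl* littermates as the controls of its synchronized cKO mice, but the labels do not say which mice shared a litter. The fit was therefore unpaired and takes no account of litter. Its p-values set the group difference against the spread between mice of the same group.

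**Figure D1:**
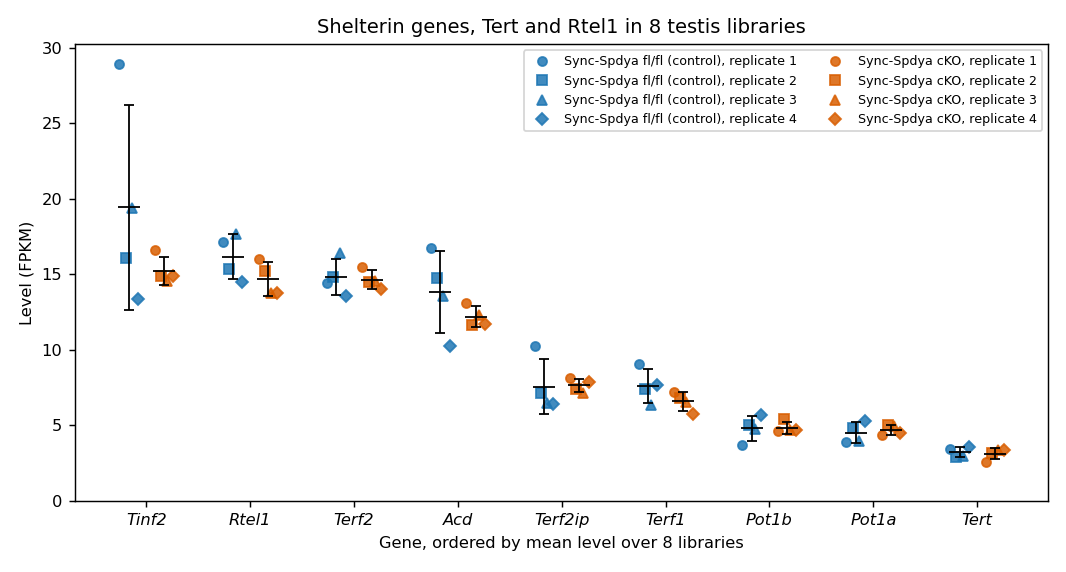
FPKM of the 9 genes (vertical axis, from 0) in each library, with a point per mouse, marker shape for the replicate number and colour for the group, and black bars for mean ± SD (n = 4). The control and cKO points overlap in every gene, and the highest *Tinf2*, *Acd*, *Terf2ip* and *Terf1* points are all control replicate 1.

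TRF1, which caps telomeres and links them to the meiotic attachment machinery, is encoded by *Terf1* (ENSMUSG00000025925) on the plus strand of chromosome 1, from 15805646 to 15844052 in GRCm38. *Terf1* had 9.07, 7.39, 6.34 and 7.64 FPKM in control replicates 1 to 4 and 7.23, 6.82, 6.56 and 5.76 FPKM in cKO replicates 1 to 4. The highest library was control replicate 1 and the lowest was cKO replicate 4, while control replicate 3 lay below 3 of the 4 cKO libraries. The means were 7.61 ± 1.12 FPKM (SD, n = 4) in control and 6.60 ± 0.618 FPKM in cKO libraries, a log2 fold change of -0.20 (standard error 0.13, 95% interval -0.48 to 0.09, limma adjusted p = 0.631). Its unadjusted p of 0.154 was the smallest of the 9 members.

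TRF2 prevents the fusion of chromosome ends and is encoded by *Terf2* (ENSMUSG00000031921) on the minus strand of chromosome 8, from 107069400 to 107096547. *Terf2* had 14.4, 14.8, 16.4 and 13.6 FPKM in the control libraries and 15.5, 14.5, 14.6 and 14.0 FPKM in the cKO libraries. All 4 cKO values lay inside the control range. The group means were 14.8 ± 1.20 and 14.7 ± 0.622 FPKM, with a log2 fold change of -0.01 (standard error 0.09, 95% interval -0.22 to 0.19, limma adjusted p = 0.971). *Terf2* was the steadiest member: its SD over the 8 libraries was 0.08 on the log2 scale, at percentile 3.16 of the genes tested, where the median gene had 0.22.

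TRF1 and TRF2 are paralogs that read the same repeat through a Myb-like domain near their C terminus. The pair of coding windows below, of 90 bases each and ungapped, comes from that end of the GENCODE vM21 coding sequences (positions 1149 to 1238 in *Terf1*, 1512 to 1601 in *Terf2*, counted from the start codon). They are shown because they are the most alike windows of this length in the pair, and capitals mark the bases that differ.
Terf1: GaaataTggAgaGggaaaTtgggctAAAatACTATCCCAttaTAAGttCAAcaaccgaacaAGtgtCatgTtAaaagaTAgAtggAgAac
Terf2: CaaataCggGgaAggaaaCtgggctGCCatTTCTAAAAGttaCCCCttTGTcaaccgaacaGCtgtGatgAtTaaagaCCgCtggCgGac
In these windows 56 bases (62.2%) were equal, and the longest stretch that the whole coding sequences share is 17 bases. No stretch of 75 bases of a *Terf2* transcript recurs in a transcript of another gene, and 16 such stretches (0.342%) of *Terf1* do, none of them in *Terf2*.

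The balance between these paralogs was measured as 1 value per library. *Terf1* was below *Terf2* in all 8 libraries, at 0.386 to 0.629 of the *Terf2* level in FPKM. The log2 ratio of *Terf1* to *Terf2* was -0.96 ± 0.30 in control and -1.14 ± 0.09 in cKO libraries (SD, n = 4). The difference of -0.18 had a two-sided exact permutation p of 0.286 over 70 assignments of the libraries (0.571 adjusted over the 2 ratios tested), and the smallest p this design allows is 0.0286. The value rested on single controls. Without control replicate 3, which held the lowest ratio, the difference was -0.32 (exact permutation p = 0.0286). That p is the smallest the remaining libraries allow, and the lowest found with any single library left out. Without control replicate 1, which held the highest ratio, the difference was -0.09 (exact permutation p = 0.571).

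RAP1, the TRF2 partner that represses recombination at telomeres, is encoded by *Terf2ip* (ENSMUSG00000033430) on the plus strand of chromosome 8, from 112011398 to 112020528. *Terf2ip* had 10.3, 7.12, 6.48 and 6.41 FPKM in the control libraries and 8.15, 7.38, 7.16 and 7.86 FPKM in the cKO libraries. Control replicate 1 lay above all 4 cKO libraries and the other 3 control libraries lay below all 4. The means of 7.57 ± 1.83 and 7.64 ± 0.447 FPKM gave a log2 fold change of 0.04 (standard error 0.15, 95% interval -0.30 to 0.38, limma adjusted p = 0.950), and without control replicate 1 it was 0.19. Its exons share 108 bases with *Gm6793* on the opposite strand, which had 45.9 to 65.4 FPKM. How the counting treated strand is not given in the sources used here, so the *Terf2ip* value may hold reads of that gene.

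The mouse has 2 genes for the single-strand binding protein. POT1a, which restrains the damage response at chromosome ends, is encoded by *Pot1a* (ENSMUSG00000029676) on the minus strand of chromosome 6, from 25743737 to 25809246. POT1b, which limits the trimming of the end, is encoded by *Pot1b* (ENSMUSG00000024174) on the minus strand of chromosome 17, from 55651951 to 55712628. Both coding sequences hold 640 codons before the stop. Their most alike 90-base windows, at positions 78 to 167 of each coding sequence, are shown because they set how well fragments of the paralogs can be told apart, with capitals for the bases that differ.
Pot1a: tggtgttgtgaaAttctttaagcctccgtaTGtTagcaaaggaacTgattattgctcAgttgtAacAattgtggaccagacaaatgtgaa
Pot1b: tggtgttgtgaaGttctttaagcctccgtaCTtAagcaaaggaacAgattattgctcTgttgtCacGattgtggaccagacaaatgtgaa
Of the 90 bases 82 (91.1%) were equal and 8 differed, and the longest stretch that the whole coding sequences share is 41 bases. No 75-base stretch of either gene recurs in a transcript of another gene.

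*Pot1a* had 3.93, 4.85, 3.93 and 5.31 FPKM in the control libraries and 4.35, 5.01, 4.93 and 4.47 FPKM in the cKO libraries. The fold change was 0.07 on the log2 scale (standard error 0.13, 95% interval -0.22 to 0.35, limma adjusted p = 0.889), from 4.50 ± 0.689 to 4.69 ± 0.331 FPKM (SD, n = 4). All 4 cKO values lay inside the control range, whose lower end was control replicates 1 and 3 and whose upper end was control replicate 4. *Pot1b* had 3.69, 5.03, 4.76 and 5.71 FPKM in the control libraries and 4.59, 5.44, 4.67 and 4.67 FPKM in the cKO libraries. It too had its lowest value in control replicate 1, its highest in control replicate 4, and all 4 cKO values between them. The fold change was 0.03 on the log2 scale (standard error 0.14, 95% interval -0.29 to 0.34, limma adjusted p = 0.961), from 4.80 ± 0.838 to 4.85 ± 0.402 FPKM, and -0.09 without control replicate 1.

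The *Pot1a* to *Pot1b* ratio was close to even in FPKM, from 0.826 to 1.06 over the 8 libraries. On the log2 scale it was -0.08 ± 0.15 in control and -0.04 ± 0.08 in cKO libraries (SD, n = 4). The difference of 0.04 was within the spread (two-sided exact permutation p = 0.743, and 0.743 adjusted over the 2 ratios). The evenness rests on the length used. The length in the table is the union of all annotated exons, 8669 bases for *Pot1a* and 5268 for *Pot1b*, while the transcripts with the longest coding sequence have 3151 and 3523 bases. Scaled to those transcripts, a choice made after the values were seen, *Pot1a* was 1.52 to 1.96 times *Pot1b*.

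TPP1, which recruits telomerase and tethers POT1, is encoded by *Acd* (ENSMUSG00000038000) on the minus strand of chromosome 8, from 105695860 to 105701102. *Acd* had 16.8, 14.8, 13.6 and 10.3 FPKM in the control libraries and 13.1, 11.6, 12.3 and 11.7 FPKM in the cKO libraries. Control replicates 1, 2 and 3 lay above all 4 cKO libraries and control replicate 4 lay below them. With means of 13.8 ± 2.71 and 12.2 ± 0.690 FPKM (SD, n = 4), the log2 fold change was -0.16 (standard error 0.14, 95% interval -0.48 to 0.16, limma adjusted p = 0.741). It was -0.06 without control replicate 1 (limma adjusted p = 0.841) and -0.30 without control replicate 4 (limma adjusted p = 0.237), and neither passed the test. *Acd* shares 1208 exonic bases with *Carmil2* on the opposite strand, which had 0.308 to 0.807 FPKM.

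TIN2, the hub that binds TRF1, TRF2 and TPP1, is encoded by *Tinf2* (ENSMUSG00000007589) on the minus strand of chromosome 14, from 55674689 to 55681820. *Tinf2* had 28.9, 16.1, 19.4 and 13.4 FPKM in the control libraries and 16.6, 14.9, 14.5 and 14.9 FPKM in the cKO libraries. Control replicate 1 was 1.94 times the median of the other 7 libraries, control replicates 1 and 3 lay above every cKO library, and control replicate 4 lay below them all. The means of 19.4 ± 6.79 and 15.2 ± 0.930 FPKM (SD, n = 4) gave the lowest log2 fold change of the 9 members, -0.29 (standard error 0.20, 95% interval -0.74 to 0.16, limma adjusted p = 0.656). That value rested on single controls: it was -0.08 when control replicate 1 was left out and -0.45 when control replicate 4 was (limma adjusted p = 0.281 for the latter). *Tinf2* was the most variable member over the 8 libraries, with an SD of 0.35 on the log2 scale, at percentile 81.1 of the genes tested. It shares 1540 exonic bases with *Gmpr2* on the opposite strand (2.22 to 3.25 FPKM).

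**Figure D2:**
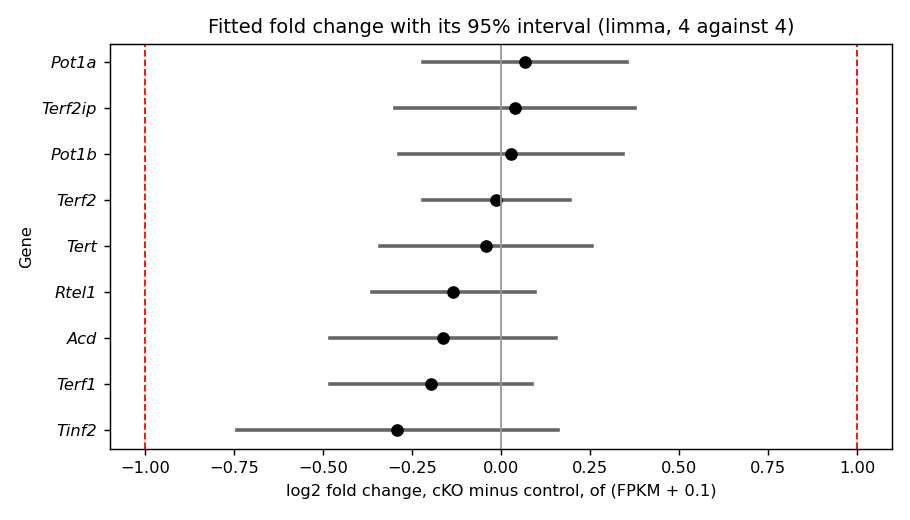
Fitted log2 fold change (cKO minus control, log2(FPKM + 0.1)) of each member as a point with its 95% interval as a bar, from limma with 4 libraries against 4. Every interval spans 0 (grey line) and lies inside the 2-fold limits (dashed lines), the widest being that of *Tinf2*, from -0.74 to 0.16.

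Telomerase reverse transcriptase, which is made in few adult cell types outside germ and stem cells, is encoded by *Tert* (ENSMUSG00000021611) on the plus strand of chromosome 13, from 73626911 to 73649843. *Tert* had 3.44, 2.90, 2.95 and 3.56 FPKM in the control libraries and 2.58, 3.19, 3.34 and 3.36 FPKM in the cKO libraries, counted from 258 to 334 fragments. The lowest library was cKO replicate 1, and the other 3 cKO libraries lay between the lower and the upper pair of control libraries. The means were 3.21 ± 0.336 and 3.12 ± 0.366 FPKM (SD, n = 4), with a log2 fold change of -0.04 (standard error 0.13, 95% interval -0.34 to 0.26, limma adjusted p = 0.937).

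The template that TERT copies lies in the telomerase RNA *Terc*, on the minus strand of chromosome 3 from 96414437 to 96414859. The stretch below (positions 8 to 56 of its 423 bases, in DNA letters) is shown because it holds the template, with capitals for the 9 bases, positions 28 to 36, that are complementary to the telomere repeat.
Terc: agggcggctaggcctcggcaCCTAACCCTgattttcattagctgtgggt
*Terc* is not protein-coding and was outside the test. It was listed at 9.20, 7.04, 4.54 and 4.18 FPKM in the control libraries and 3.66, 7.85, 5.89 and 3.90 FPKM in the cKO libraries, from 28 to 54 fragments, and the groups overlapped.

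RTEL1, which resolves telomeric loops and limits crossovers, is encoded by *Rtel1* (ENSMUSG00000038685) on the plus strand of chromosome 2, from 181319739 to 181356616. *Rtel1* had 17.1, 15.4, 17.7 and 14.5 FPKM in the control libraries and 16.0, 15.2, 13.8 and 13.8 FPKM in the cKO libraries. Control replicates 1 and 3 lay above all cKO libraries, cKO replicates 3 and 4 lay below all controls, and the other 4 libraries were intermixed. The means of 16.2 ± 1.51 and 14.7 ± 1.11 FPKM (SD, n = 4) gave a log2 fold change of -0.13 (standard error 0.10, 95% interval -0.36 to 0.10, limma adjusted p = 0.702).

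The genes were compared with each other per length of gene. By mean FPKM over the 8 libraries the order was *Tinf2* (17.3), *Rtel1* (15.4), *Terf2* (14.7), *Acd* (13.0), *Terf2ip* (7.60), *Terf1* (7.10), *Pot1b* (4.82), *Pot1a* (4.60) and *Tert* (3.16). The ranges of neighbours were separate at 3 places, between *Acd* and *Terf2ip*, between *Terf1* and *Pot1b*, and between *Pot1a* and *Tert*. All other neighbours overlapped and kept their order in 6 or 7 of the 8 libraries, so their order is not set beyond the spread. Among the 12141 genes tested the members sat from percentile 18.2 of mean level (*Tert*) to percentile 69.9 (*Tinf2*).

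The order changed with the length used for scaling. The exon union was from 1.15 times (*Acd*) to 2.75 times (*Pot1a*) as long as the main coding transcript. Per kilobase of the coding transcript, a scale chosen after the values were seen, *Tinf2* (42.8) stood above *Terf2* (25.4) in all 8 libraries, *Pot1a* (12.6) rose from rank 8 to rank 6, and *Tert* (4.20) was again last. A length is the same in all libraries, so that the fold changes do not depend on it.

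**Figure D3:**
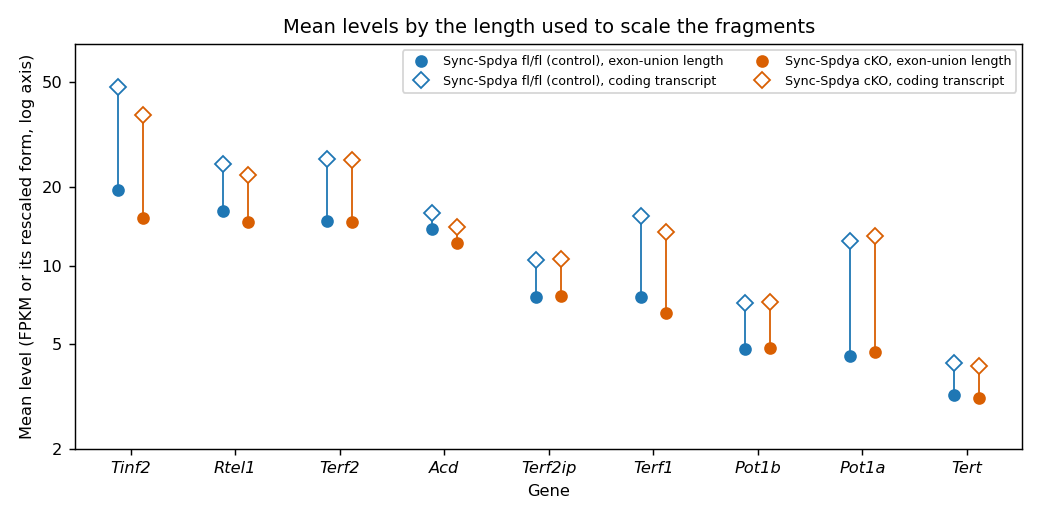
Mean level of each gene (log axis) in control and cKO libraries, as FPKM with the exon-union length of the deposited table (filled circles) and rescaled to the coding transcript (open diamonds), with a line joining the pair. The 2 groups stay close on either scale, while *Pot1a* moves above *Pot1b* and *Terf2ip* when the coding transcript is used.

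The summed FPKM of the 7 shelterin genes was 62.3 to 87.1 in control and 63.4 to 69.5 in cKO libraries, and the cKO range lay inside that of the controls. *Tinf2* made up 21.5% to 33.2% of the sum, *Terf2* 16.6% to 23.2%, *Acd* 16.5% to 21.1%, *Terf2ip* 9.14% to 12.4%, *Terf1* 8.95% to 12.3%, *Pot1b* 4.24% to 9.17% and *Pot1a* 4.51% to 8.52%. Both ends of the *Pot1a* and *Pot1b* shares were controls: replicate 1 held the lowest share of each and replicate 4 the highest.

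The SD in FPKM was larger in the controls in 8 of the 9 members (88.9%), the exception being *Tert*, and in 80.3% of the genes tested, so the members' share was near that of all genes. In 6 members (66.7%) all cKO values lay strictly inside the control range, against 42.8% of the genes tested. Control replicate 1 was highest in *Terf1*, *Terf2ip*, *Acd* and *Tinf2* and lowest in *Pot1a* and *Pot1b*, and it held the highest or lowest value in 57.8% of the genes tested. Control replicate 4 went the other way for most of these, being lowest in *Terf2*, *Terf2ip*, *Acd* and *Tinf2* and highest in *Pot1a*, *Pot1b* and *Tert*, and it was extreme in 34.7% of the genes tested. Without control replicate 1 the log2 fold changes were -0.11 for *Terf1*, -0.06 for *Acd*, -0.08 for *Tinf2*, -0.10 for *Rtel1*, 0.19 for *Terf2ip* and -0.09 for *Pot1b*, and those of *Terf2*, *Pot1a* and *Tert* lay between -0.02 and 0.01. The adjusted p of the 9 was then 0.349 to 0.986 (limma). The *Pot1a* to *Pot1b* ratio difference without it was 0.10 (exact permutation p = 0.371). Control replicate 1 was also the library with the low mitochondrial share, and the part of that share in its values was not tested.

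**Figure D4:**
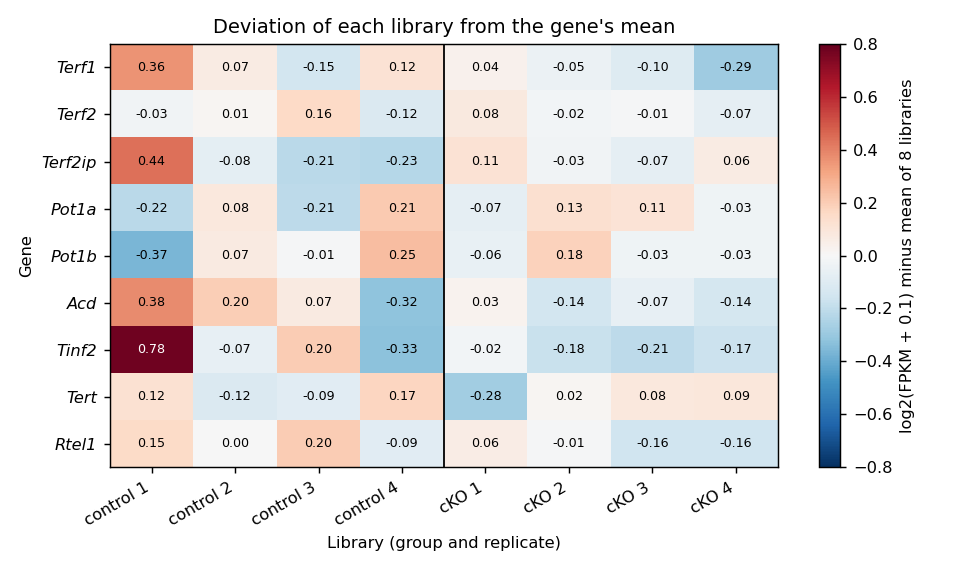
Deviation of each library (columns, control and cKO separated by the black line) from the mean of 8 libraries for each gene (rows), in log2(FPKM + 0.1), with red above and blue below. Control replicate 1 holds the strongest deviations, 0.78 for *Tinf2* and -0.37 for *Pot1b*, and control replicate 4 has the opposite sign in both.

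As a description, the genes tested whose log2 levels followed *Terf1* most closely over the 8 libraries were *Aamdc* (Pearson r = 0.967), *E2f7* (0.942) and *Ccdc34* (0.940). Without control replicate 1 these values were 0.923, 0.875 and 0.863. The libraries are shared by all points, and the 3 genes are the highest of 12141.

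The wider pathway was read from 5 lists of genes that act on telomeres beside the members, of which 53 genes were tested. At the call threshold 0 of the 53 passed, and 0 passed an adjusted p below 0.05 alone. At an unadjusted p below 0.05 there were 6 (11.3%), all with lower values in cKO libraries, next to 10.9% of the genes tested, and the ranges of control and cKO libraries were separate in 4 of the 53, near the 6.24% of all genes tested. None of the genes in the following sentences passed the test, and their values are given, control then cKO, as mean ± SD in FPKM (n = 4) unless a range or single libraries are named.

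Among the 53 genes the lowest fold changes were those of *Terb1* and *Terb2*, from the list of meiotic telomere attachment. *Terb1*, which binds TRF1 and brings telomeres to the nuclear envelope, had 17.8, 8.19, 8.67 and 7.60 FPKM in control and 6.67, 5.58, 5.22 and 4.54 FPKM in cKO libraries. The groups were separate, and control replicate 1 stood far above the rest. Its fitted difference was -0.85 on the log2 scale (standard error 0.25, limma adjusted p = 0.276), and -0.57 without control replicate 1 (limma adjusted p = 0.0899). Its partner *Terb2* had 11.1 ± 1.09 and 7.54 ± 1.98, with a log2 fold change of -0.58 (limma adjusted p = 0.260), while *Majin*, the third component and the membrane anchor, had 37.6 ± 5.35 and 34.5 ± 6.19. Of the 7 genes tested in this list, 6 had lower means of log2 values in cKO libraries, *Spdya* being the exception, with a median log2 fold change of -0.10. Of the spermatocyte markers, 7 of 7 tested had log2 fold changes below 0 with a median of -0.29, where 52.0% of all genes tested lay above 0. Among the 7, 0 were called and 1 had an unadjusted limma p below 0.05. The summed level of this marker list was 821.8 to 1128 FPKM in control and 673.2 to 1038 FPKM in cKO libraries, and these ranges overlapped. The part of these markers in the *Terb1* and *Terb2* values was not tested.

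In the list of CST and polymerase alpha-primase, which refill the strand that telomerase does not extend, 2 of 7 genes tested were at an unadjusted p below 0.05. The primase subunits *Prim1* (10.3 ± 0.455 and 8.09 ± 0.936, log2 fold change -0.35, limma adjusted p = 0.280) and *Prim2* (11.3 ± 1.42 and 9.09 ± 0.891, -0.31, limma adjusted p = 0.404) were both lower in mean. *Prim1* had separate groups and *Prim2* did not. The polymerase subunits *Pola2* (17.9 ± 1.57 and 15.8 ± 1.03) and *Pola1* (2.17 ± 0.526 and 1.70 ± 0.130) came next, and the list had a median log2 fold change of -0.18.

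Among 17 shelterin partners, nucleases and helicases, the nuclease scaffold gene *Slx4* ranged from 14.2 to 17.9 FPKM and from 12.5 to 14.9 FPKM (log2 fold change -0.28, limma adjusted p = 0.391) and *Zbtb10*, which encodes a telomere-binding zinc finger protein, had 13.2 ± 3.59 and 9.72 ± 0.625 (-0.40, limma adjusted p = 0.417). *Zbtb10* had separate groups, and its log2 fold change was -0.23 without control replicate 1. The helicase gene *Blm* (8.95 ± 1.08 and 7.83 ± 0.273) and the nuclease gene *Ercc1* (6.62 ± 1.42 and 7.77 ± 0.771) were at an unadjusted p above 0.05, and the list's median was -0.02.

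Telomerase assembly and telomeric chromatin had 0 genes at an unadjusted p below 0.05, of 12 and 10 tested. In the assembly list, whose median log2 fold change was 0.03, *Nhp2* had 46.2 ± 9.07 and 54.1 ± 1.73, *Parn*, which trims telomerase RNA, 7.93 ± 0.864 and 8.86 ± 0.401, and *Shq1* 4.70 ± 1.29 and 5.24 ± 0.664. *Nop10*, a component of the telomerase ribonucleoprotein, had 11.9 FPKM in control replicate 1 and 38.2 to 48.6 FPKM in the other 7 libraries. In the chromatin list, with a median of -0.07, *H3f3a* and *H3f3b*, which encode the same histone H3.3 protein, had 49.5 ± 12.7 and 61.8 ± 4.50 and 394.4 ± 53.0 and 340.5 ± 54.2, and both are uncertain because retrocopies of these genes can share their fragments. *Cbx5*, for a heterochromatin protein, had 21.4 ± 3.13 and 18.5 ± 0.965, and *Suv39h1*, for a histone methyltransferase, 8.27 ± 1.22 and 7.29 ± 0.851.

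Markers of somatic testis cells were measured in the same libraries. Of the Sertoli cell markers 7 of 7 had log2 fold changes above 0, with summed levels of 979.5 to 1327 FPKM in control and 1310 to 1553 FPKM in cKO libraries. Most of that sum was *Clu*, with means of 822.8 FPKM in control and 1056 FPKM in cKO libraries, beside mean sums of 1130 and 1385 FPKM. *Wt1* and *Sox9* had log2 fold changes of 0.03 and 0.08. Macrophage markers, 5 of 5 above 0, summed to 12.3 to 19.9 FPKM in control and 21.0 to 25.0 FPKM in cKO libraries. Peritubular myoid markers (3 of 3 tested above 0) summed to 44.8 to 74.95 and 74.0 to 104.2 FPKM. Leydig cell markers (3 of 3 tested) summed to 16.5 to 37.9 and 28.6 to 46.7 FPKM, and endothelial markers (4 of 4 tested) to 5.82 to 12.8 and 11.8 to 15.1 FPKM. The myoid sum was mostly *Acta2*, with means of 49.5 FPKM in control and 72.8 FPKM in cKO libraries, beside mean sums of 61.7 and 86.3 FPKM. The Leydig sum held *Hsd3b1* at means of 11.2 and 20.2 FPKM, beside mean sums of 22.1 and 34.7 FPKM. The myoid, Leydig and endothelial sums also hold list genes outside the test. Of these, *Cyp11a1* (0.766 and 1.24 FPKM), *Cyp17a1* (0.499 and 0.753), *Cnn1* (0.899 and 1.11) and *Vwf* (0.697 and 0.710) had higher means in cKO libraries. *Tagln* (0.855 and 0.712) and *Insl3* (0.576 and 0.572) had lower ones. Spermatogonial markers, 5 of 7 above 0, summed to 184.8 to 257.3 and 239.9 to 249.2 FPKM. No marker was called (limma). At an unadjusted p below 0.05 there were 1 of 7 spermatocyte markers tested and 8 somatic markers. The somatic ones were 0 of 7 for Sertoli cells, 2 of 3 for Leydig cells, 1 of 3 for myoid cells, 3 of 5 for macrophages and 2 of 4 for endothelial cells. Among all genes tested 10.9% were at that p, and 52.0% had log2 fold changes above 0. The part of these markers in the members' values was not tested.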

How the data were processed

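RNA-seq libraries of 8 mice, 4 control and 4 cKO, were prepared from total testis RNA with a SMARTER mRNA-seq kit per the labels. The authors deposited FPKM values made by a sequencing company's software for 54532 genes. Per the labels the build is GRCm38, and the aligner, the counter and the use of strand are not given in the sources used here. The 8 per-library files equalled the table, and 0 columns of per-sample values were left unused. FPKM times gene length gave whole fragments in 100% of values above 0 (tolerance 0.02), 13978342 to 17867570 in control and 15494873 to 19583091 in cKO libraries, and the authors' scaling of the libraries is part of the values. For the least different pair of libraries, the squared difference averaged 4.62 times that of sampling noise per gene. Each library came from 1 mouse and was counted as 1 sample.

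The study called genes with DESeq2 on counts, which was not run here. It reported more called genes than the limma test did. The main test was limma 3.58.1 under R 4.3.3, with lmFit and a trended eBayes and no covariate. It used log2(FPKM + 0.1) of the 8 libraries for protein-coding genes that averaged over 1 FPKM in each group, and adjusted p by Benjamini-Hochberg. Fold changes on this scale understate those of low genes. The filter and the thresholds (adjusted p below 0.05, absolute log2 fold change above 1) are the study's. In simulated fragments for the 12141 genes, 200 genes were given a log2 change of 1.5. Of these, 198 were called at a dispersion of 0.02 and 189 at 0.05, each with 2 false calls. The simulation held no outlying library such as control replicate 1, and its change was larger than any fold change printed here. It therefore does not show how often smaller changes would be found in the real libraries. The log2 ratios of *Pot1a* to *Pot1b* and of *Terf1* to *Terf2* were compared by exact permutation over 70 assignments.

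The members and lists were chosen with earlier results of these data known. Named genes are all members, *Spdya*, up to 4 genes per pathway list with the smallest unadjusted p, and the 3 genes with the highest Pearson r to *Terf1*. Other genes are markers, genes that overlap a member, and *Terc*, a list gene outside the test that was named for its template. *Terb1*'s per-library values and *Nop10* were singled out for control replicate 1 after their values were seen. Coordinates, exon unions, coding windows and shared stretches of 75 bases are from GENCODE vM21 on GRCm38, which held 99.77% of the genes in the table, 98.33% of them with matching ends. Alternatives were other pseudocounts, filters, biotypes and library scalings, a replicate block, array weights, no trend, voom on the recovered fragments, and each library left out in turn. Figures were drawn with matplotlib 3.10.9.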

Additional observations from a re-analysis of the deposited data

Results flagged for a closer look

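In each group of 4 libraries the highest and lowest value was set against its neighbours by Dixon's criterion, in 24 groups of values, of which chance flags about 1.2. *Pot1b* in cKO replicate 2 was at 5.44 FPKM, while the other 3 cKO libraries lay between 4.59 and 4.67 FPKM. The gap was 0.905 of the group's range, and the value still lay inside the control range of 3.69 to 5.71 FPKM. The mitochondrial share of control replicate 1 was 0.464% of fragments, against 2.97% to 3.39% in the other 3 control libraries, with a gap of 0.855 of the range. The same library held the highest *Tinf2*, *Acd*, *Terf2ip* and *Terf1* values, and the part of the mitochondrial share in these was not tested.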

How the results depend on the processing

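No member was called in any of the 20 alternatives, and of 177 member values under them 164 kept their direction and side of the threshold and 13 changed sign, with a smallest limma adjusted p of 0.237. The sign changed for *Terf2* with median centring (0.0040) and rescaling to TPM (0.065), for *Pot1b* with array weights (-0.024), and for *Tert* with TPM (0.035) and array weights (0.093). Median centring and TPM move all genes, the median of the genes tested going from 0.01 to 0.03 and 0.09, and the shifts of *Terf2* and *Tert* under them were of that size. When single libraries were left out, the log2 fold changes ran from -0.054 to 0.037 for *Terf2*, from -0.031 to 0.19 for *Terf2ip*, from -0.090 to 0.12 for *Pot1b* and from -0.087 to 0.043 for *Tert*. Members at an unadjusted p below 0.05 numbered 0 to 2, the 2 being *Acd* and *Tinf2* without control replicate 4. List genes at an unadjusted p below 0.05 numbered 3 to 10 with a library left out (10 without control replicate 1, 3 without cKO replicate 2 and 3 without cKO replicate 4) and 10 with array weights, under which 3 (*Terb1*, *Terb2* and *Slx4*) had an adjusted p below 0.05. Those weights gave control replicate 1 the least (0.161). The log2 difference of the *Pot1a* to *Pot1b* ratio ran from -0.022 to 0.10 with a library left out, below 0 without control replicate 3 and without cKO replicate 3. That of *Terf1* to *Terf2* ran from -0.32 to -0.085. Its exact permutation p was 0.0286 without control replicate 3, the smallest p the remaining libraries allow. *Pot1a* was at rank 6 by the coding transcript, a scale chosen after seeing the data. The filter at 5 FPKM left out *Pot1a*, *Pot1b* and *Tert*. The cause of these changes was not tested.

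Replicate numbers were not taken as pairing, since deviations of same-numbered libraries correlated at 0.288, 0.131, 0.0757 and 0.406, and 2 of the 4 numbers correlated best with their own. With a replicate block 0 members were called and 6 list genes had an unadjusted p below 0.05, and no limma call of these genes changed. The ratio differences were 0.04 (exact p = 0.875) and -0.18 (exact p = 0.375), from flipping the signs of the 4 same-numbered differences. With 4 pairs that test cannot give a p below 0.05, so no conclusion is drawn from it.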
